A study of Mus musculus with 6 samples.

Results

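Tumour cells carry surface proteins that hold back the immune cells they meet, and 10 genes for such ligands were followed here in mouse sarcoma cell lines with and without Dicer: Cd200, Cd274, Pdcd1lg2, Cd276, Cd47, Pvr, Nectin2, Lgals9, Cd80 and Cd24a. They were taken as every probe set of the array annotated to exactly 1 of these symbols, which gave 26 probe sets for 10 of the 18193 genes named on the array. The group was selected on measured values: Cd200 heads it because of its low level in the Dicer null arrays, and the other genes were joined to it with results of the same comparison known. The differences of these 10 genes are therefore given as a description and as support for nothing, with no p-value. How many of their probe sets passed the threshold of the fit is printed beside the share over all probe sets. For the alternative fits it is printed beside the total called.

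RNA came from 3 samples of sarcoma cells heterozygous for Dicer ("het" below) and 3 samples null for Dicer ("null"), all labelled strain C57BL6/J and cultured in DMEM with serum to confluence with no further treatment. Dicer cuts microRNA precursors into mature microRNAs, so the het cells keep 1 working copy of the enzyme and the null cells have none. The labels name no other allele, no driver of the tumours and no Cre line, and they do not say whether the 3 samples of a group were separate clones, lines or cultures; the design text calls them lines. The p-values of the fit thus measure only the spread between these samples.

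As background, Cd200 is a membrane glycoprotein whose receptor on macrophages, mast cells and other myeloid cells delivers an inhibitory signal. Cd274 (PD-L1) and Pdcd1lg2 (PD-L2) engage the receptor Pdcd1 on T cells, Cd80 engages Cd28 and Ctla4, and Cd276 is another member of the same B7 family. Cd47 binds Sirpa and Cd24a binds Siglecg, and both contacts restrain phagocytosis. Pvr and Nectin2 bind Tigit, which inhibits, and Cd226, which activates T and natural killer cells, while Lgals9 is a galectin that binds Havcr2.

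Promoter stretches are shown for Cd200, the member with the lowest null level against het, for Cd274, the best studied of the T cell ligands, and for Cmtm6, a partner of Cd274 whose RNA passed the test below. Each is the 250 bases before the annotated start, 5′ to 3′ on the gene's strand, from RefSeq on GRCm38.p6: Cd200 at chr16:45409054-45409303 (minus strand), Cd274 at chr19:29367188-29367437 (plus strand) and Cmtm6 at chr9:114730953-114731202 (plus strand). Capitals mark the GC box GGGCGG, searched on both strands and found in 32.7% of 32851 such stretches of all genes.
Cd200: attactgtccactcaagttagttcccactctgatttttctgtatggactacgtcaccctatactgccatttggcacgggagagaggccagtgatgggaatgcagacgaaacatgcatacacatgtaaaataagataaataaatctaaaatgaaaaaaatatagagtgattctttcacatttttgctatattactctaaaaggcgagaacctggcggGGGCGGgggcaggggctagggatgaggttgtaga
Cd274: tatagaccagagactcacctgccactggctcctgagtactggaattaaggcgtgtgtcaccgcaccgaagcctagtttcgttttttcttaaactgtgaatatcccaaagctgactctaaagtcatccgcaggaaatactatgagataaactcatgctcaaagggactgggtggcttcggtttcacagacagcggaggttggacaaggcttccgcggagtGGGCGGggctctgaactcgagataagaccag
Cmtm6: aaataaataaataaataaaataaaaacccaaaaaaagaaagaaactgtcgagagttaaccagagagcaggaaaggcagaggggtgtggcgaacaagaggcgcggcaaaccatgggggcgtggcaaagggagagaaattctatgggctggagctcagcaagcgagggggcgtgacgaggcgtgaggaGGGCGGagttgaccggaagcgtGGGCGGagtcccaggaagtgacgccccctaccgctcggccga

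In these windows Cd200 and Cd274 held 1 GC box each, 34 and 31 bases before the start, and Cmtm6 held 2. Other motifs searched on both strands were the box CCAAT (in 33.8% of all stretches), the box TATAAA (12.4%), the AP-1 site TGACTCA (4.46%) and the STAT site TTCNNNGAA (7.02%). These letters are in none of the 3 stretches shown, and no searched motif overlapped another in them. The Cd200 stretch held 6 CG dinucleotides, the median of all stretches being 6, and that of Cd274 held 11. Of the 10 members 8 had an entry in the promoter table: besides the genes shown, Pdcd1lg2 (3 CG dinucleotides), Lgals9 (3), Cd80 (3), Nectin2 (16), Cd276 (29) and Cd47 (30 and 31 for its 2 starts).

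The values are log2 GCRMA values, a normalized probe brightness for each probe set, and the 45037 probe sets ran from 0.40 to 14.18. A probe set was tested if its mean over the 6 arrays was at least 3, below which GCRMA values are read here as dim, and a probe set was called if its adjusted p in limma's moderated test (Benjamini-Hochberg over the 24385 tested probe sets) was under 0.05. Array medians were 3.32 to 3.43, no arrays were identical, and pairs of het arrays correlated at 0.972 to 0.988, pairs of null arrays at 0.988 to 0.991 and pairs across the groups at 0.963 to 0.981. The 2 Dicer1 probe sets, with means of 8.32 and 8.12 in het and 8.46 and 8.39 in null arrays, were not called (limma adjusted p = 0.693 and 0.573), and where they lie relative to the deleted part is not given in the sources used here. Of 12 fibroblast and mesenchymal markers 11 reached the minimum of 3, and Thy1 was below it. Vim stood at 13.71 to 13.84 in every array. Lum read 1.95, 1.75 and 2.79 in het and 4.83, 6.73 and 3.39 in null arrays, so it reached the minimum through the null arrays alone. In 7 of the 11 the null mean was lower, while 13 of the 16 leukocyte markers with a probe set were below the minimum. The 3 above it were Cd14 at 6.71 to 7.45, Cd68 at 4.43 to 7.13 and Coro1a at 4.33 to 6.14. The leukocyte list's mean value was 2.69 to 2.75 in het and 2.49 to 2.72 in null arrays, and Ptprc, the pan-leukocyte antigen, stood at 1.55 to 1.62.

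Cd200 was bright in all 3 het arrays and dim in all 3 null arrays. Its single probe set, 1448788_at, read 9.38, 10.54 and 10.35 in het replicates 1 to 3 and 1.89, 2.48 and 2.12 in null replicates 1 to 3. The groups lay far apart, with the highest null value below the minimum of 3 and the lowest het value above 9. The means were 10.1 ± 0.62 and 2.16 ± 0.30 (SD, n = 3), and null minus het was -7.93 on the log2 scale (SE 0.35). Because the null mean lies in the dim range, the fold is given against a value of 3, as at least 136-fold lower in null. Without 1 array this bound ran from 117 (without het replicate 2) to 174 (without het replicate 1). No second probe set was present to check it, and the array cannot tell fewer cells with Cd200 RNA from less of it per cell.

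**Figure D1:**
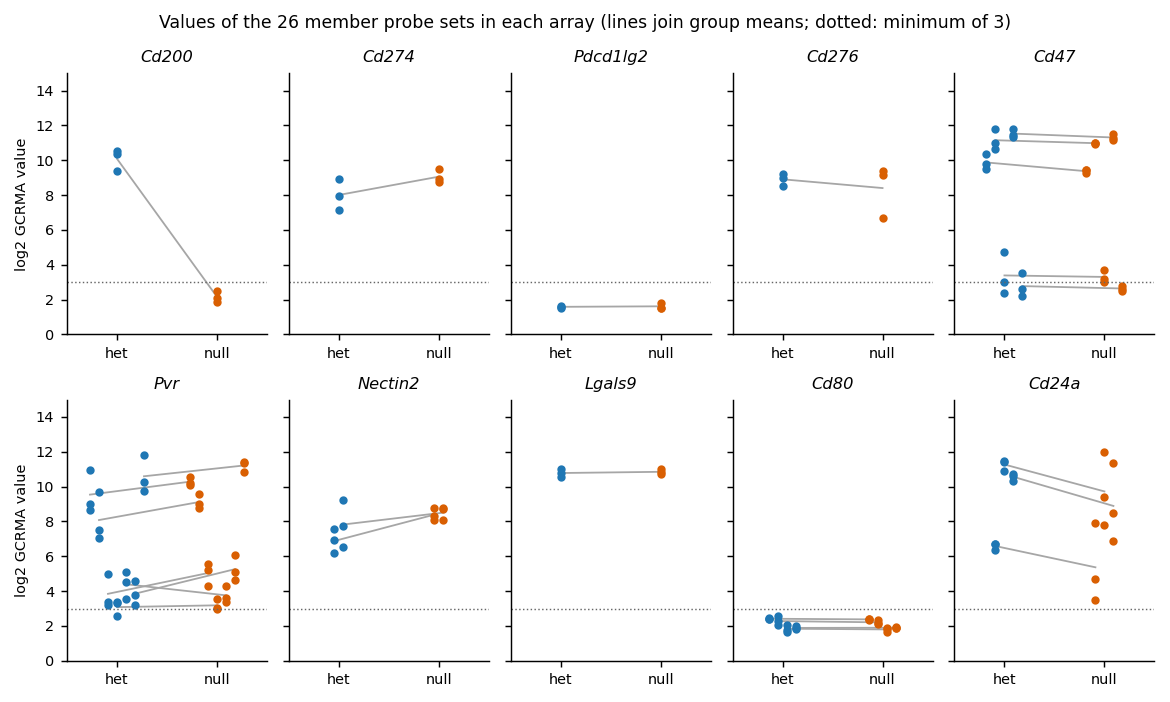
Log2 GCRMA value (vertical axis) of each of the 26 probe sets of the 10 genes in het (blue) and null (orange) arrays; each point is 1 array, grey lines join the means of a probe set, and the dotted line is the minimum of 3. Cd200 goes from 9.38 or more in het to 2.48 or less in null arrays, Cd24a spreads widely among the null arrays, and Pdcd1lg2 and Cd80 stay dim throughout.

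The other ligands that restrain phagocytes are Cd47 and Cd24a. Cd47, which binds Sirpa on macrophages, had 5 probe sets, of which 4 were tested. The bright probe set 1449507_a_at read 11.46, 11.36 and 11.78 in het and 11.28, 11.49 and 11.16 in null arrays. The groups overlapped, and the difference was -0.22 (SE 0.19). Another, 1428187_at, read 10.64, 11 and 11.82 in het and 10.96, 11 and 10.99 in null arrays. Here the het arrays enclosed the null ones, and the difference was -0.17 (SE 0.31) and 0.16 without het replicate 3, the highest of its group in all 5 Cd47 probe sets. In 1419554_at the het values 9.50, 9.76 and 10.37 lay just above the null values 9.42, 9.45 and 9.25, with a difference of -0.50 (SE 0.25). The dim probe sets 1430997_at and 1459908_at had differences of -0.09 and -0.14, the second one untested.

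Cd24a, a small heavily glycosylated protein that signals through Siglecg, was even among het arrays and uneven among null arrays. Its probe set 1437502_x_at read 11.48, 11.41 and 10.92 in het and 12, 9.39 and 7.78 in null arrays. The other bright one, 1448182_a_at, gave 10.73, 10.63 and 10.32 in het and 11.36, 8.46 and 6.85 in null arrays, and 1416034_at gave 6.72, 6.69 and 6.35 against 7.90, 4.71 and 3.49. In all 3 probe sets null replicate 1 lay above every het array and null replicates 2 and 3 below every one. The SD among null arrays was 2.13, 2.29 and 2.28, against 0.31, 0.21 and 0.21 among het arrays. The mean differences of -1.55, -1.67 and -1.22 had SEs of 1.0, 1.07 and 1.06. Without null replicate 1 the difference of 1448182_a_at was -2.91, and without null replicate 3 it was -0.65. The suffix x marks probes that can match other transcripts.

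Of the B7 family, Cd274 and Cd276 were measurable. Cd274, the main ligand of Pdcd1, read 7.97, 7.14 and 8.92 in het and 8.90, 9.50 and 8.78 in null arrays. Het replicate 3 reached the level of the null arrays, and het replicates 1 and 2 lay below all of them. The means were 8.01 ± 0.89 and 9.06 ± 0.39 (SD, n = 3), a difference of 1.05 (SE 0.47), which was 1.51 without het replicate 3 and 0.61 without het replicate 2. Cd276, which inhibits T cells in many settings and is common on solid tumours, read 9.21, 9.01 and 8.51 in het and 9.14, 9.37 and 6.71 in null arrays. Null replicate 3 alone was low, so that the difference of -0.50 (SE 0.71) became 0.34 without it. Pdcd1lg2, the second ligand of Pdcd1, lay between 1.52 and 1.80 in all 6 arrays, and the 4 probe sets of Cd80 between 1.67 and 2.55. None of these 5 probe sets reached the minimum, so no difference between the groups is read from them.

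The nectin-family ligands had higher means in null arrays in 8 of their 9 tested probe sets. These are 2 of Nectin2 and 7 of Pvr, read on the same 6 arrays, so they are not separate observations. Nectin2 read 7.56, 6.16 and 6.91 in het and 8.78, 8.29 and 8.10 in null arrays in probe set 1417703_at. There every null array lay above every het array, the difference being 1.51 (SE 0.39). In its other probe set, 1424456_at, het replicate 1 stood at 9.22, above the null values of 8.75, 8.71 and 8.06, and het replicates 2 and 3 at 7.71 and 6.54. The difference there was 0.68 (SE 0.66), 1.38 without het replicate 1 and 0.042 without het replicate 3.

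Pvr, the other ligand of Tigit and Cd226, had 7 tested probe sets, 6 with a positive and 1 with a negative difference. The brightest was 1451160_s_at, whose suffix s marks probes shared by several transcripts. It read 11.81, 10.24 and 9.73 in het and 10.86, 11.44 and 11.34 in null arrays. Het replicate 1 was the highest of the 6 arrays there and in 1423903_at (10.95 against 8.64 to 10.53 in the others) and 1423904_a_at (9.71 against 7.05 to 9.57). Differences in these 3 were 0.62, 0.74 and 1.03 (SE 0.54, 0.60 and 0.70), and without het replicate 1 they were 1.23, 1.45 and 1.85. Without het replicate 3 they were 0.19, 0.29 and 0.52. Probe set 1450295_s_at, which also has the suffix s, was the 1 without overlap: 4.58, 3.78 and 3.19 in het and 4.61, 6.08 and 5.09 in null arrays. Its difference was 1.41 (SE 0.49). The remaining 3 gave 1.19 for 1423905_at, 0.10 for 1429848_at and -0.64 for 1445149_at, so the probe sets of this gene did not all point one way.

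Lgals9, the galectin ligand of Havcr2, was bright in both groups. It read 10.76, 10.56 and 11.02 in het and 11.01, 10.72 and 10.82 in null arrays, with a difference of 0.07 (SE 0.19). The groups overlapped throughout.

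Counted together, 20 of the 26 probe sets, for 8 of the 10 genes, passed the minimum, and 1 of the 20, that of Cd200, was past the threshold of the limma fit, where 3.10% of all tested probe sets were. Cd200 passed the minimum through its het arrays alone. In 4 of the 20 the groups did not overlap (Cd200, 1 of Nectin2, 1 of Pvr and 1 of Cd47), where 30.9% of all tested probe sets had no overlap. The median difference of the 8 genes, each by its brightest tested probe set, was -0.08 and that of all 11425 tested genes -0.01. Nothing is read from these shares, since the genes were chosen with this comparison known.

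**Figure D2:**
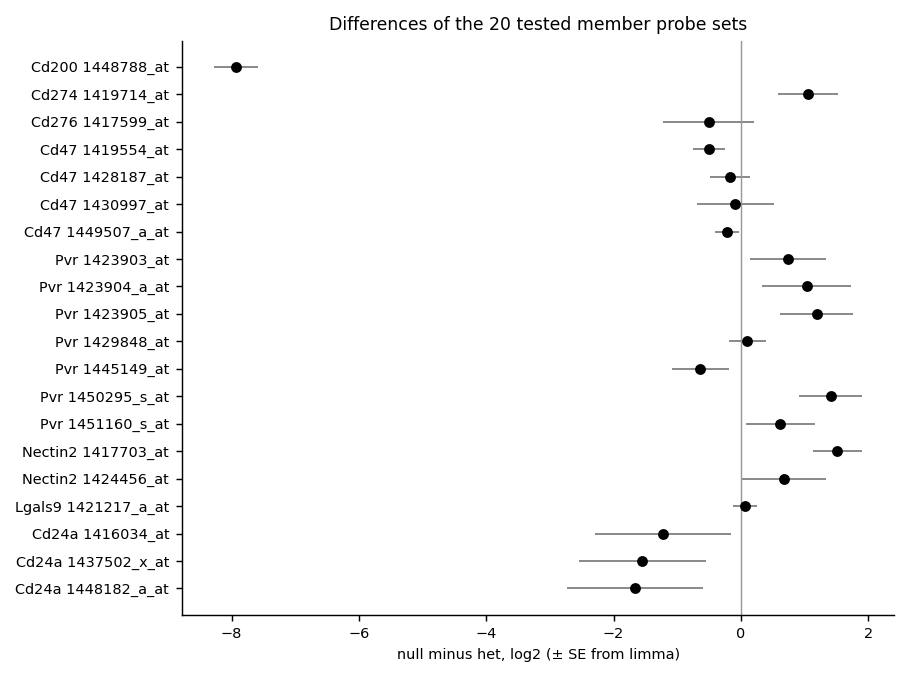
Null minus het difference on the log2 scale (horizontal axis) with its standard error from limma (bars) for the 20 tested probe sets (points). Cd200 stands at -7.93 and the other 19 lie between -1.67 and 1.51.

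Among 13 receptors and partners of these ligands with a probe set, 4 reached the minimum, and 2 of them were called, 1 higher and 1 lower in the null arrays. Over all 11425 tested genes the share called was 3.46%. Sirpa, the receptor of Cd47, known from macrophages and neurons, fell. Its tested probe set read 8.72, 9.78 and 7.48 in het and 3.71, 2.96 and 2.95 in null arrays, so no null array came near a het array. The difference was -5.45 (SE 0.59, limma adjusted p = 0.0169), 43.8-fold as a ratio and 66.0-fold without het replicate 3. The null mean of 3.21 lies close to the minimum of 3, with null replicates 2 and 3 below it, so the size of these folds is uncertain. Without null replicate 1 the fold is only a bound, at least 50.6 against a value of 3. The call was lost without null replicate 2 (0.0804), without null replicate 3 (0.0729), with ordinary t statistics (0.111) and with the replicate block of the titles (0.0538). Its other probe sets were under the minimum, 1448534_at at 3.38, 3.83 and 3.07 in het and 2.53, 2.24 and 2.24 in null arrays and 1416986_a_at at 1.85 to 2.36 throughout.

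Cmtm6, a membrane protein that keeps Cd274 at the cell surface, rose. It read 8.99, 8.67 and 8.52 in het and 9.94, 9.78 and 9.73 in null arrays, all null arrays above all het arrays, with a difference of 1.09 (SE 0.19, limma adjusted p = 0.0420). Its other probe set differed by 0.83 and was not called (limma adjusted p = 0.138). The call of the first was kept without het replicate 1 but in none of the fits without 1 of the other 5 arrays, where the adjusted p ran from 0.0572 to 0.138, and it was lost with ordinary t statistics (0.114) and with the block (0.0792). Cmtm4, its relative, differed by 0.03, and Siglecg, the receptor of Cd24a, read 10.43, 8.34 and 7.23 in het and 6.59, 7.64 and 6.93 in null arrays without a call. Apart from Sirpa and Siglecg, the receptors with a probe set were dim: Cd200r1, Cd200r3, Cd200r4, Pdcd1, Ctla4, Cd28, Cd226, Cd96 and Havcr2 had means under 3.

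**Figure D3:**
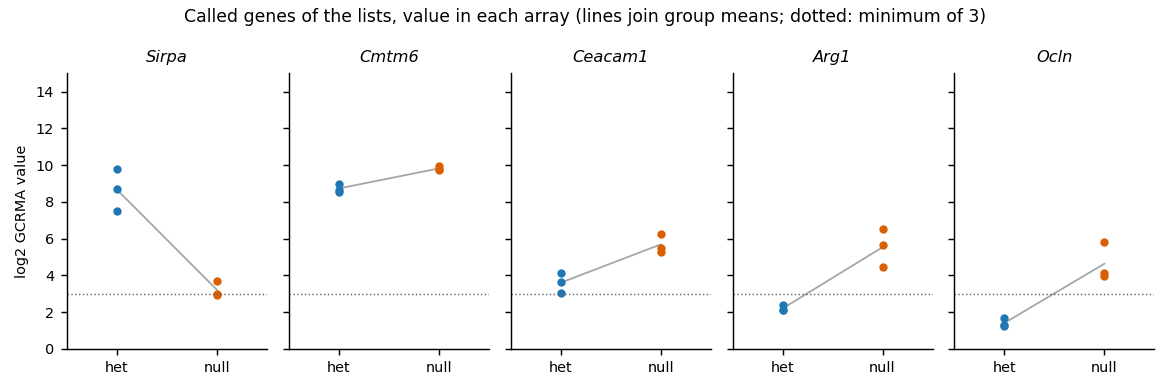
Log2 GCRMA value (vertical axis) in het (blue) and null (orange) arrays for the 5 genes called among the pathway and marker lists; each point is 1 array, lines join the means and the dotted line is the minimum of 3. Sirpa is lower in all null arrays, and Cmtm6, Ceacam1, Arg1 and Ocln are higher in all of them.

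Ceacam1 and Arg1 rose among the other immune-restraining genes, where 3.46% of all tested genes were called in either direction. Of 5 tested genes among further B7, butyrophilin and nectin-like genes 1 rose and 0 fell: Ceacam1, an adhesion protein that can inhibit T and natural killer cells. It read 4.10, 3.65 and 3.04 in het and 5.28, 5.50 and 6.26 in null arrays, a difference of 2.08 (SE 0.37, limma adjusted p = 0.0449). Its 2 other tested probe sets, both with the suffix x, had het means below 3 and passed the minimum through the null arrays alone, so that they give only bounds, at least 3.04-fold and at least 3.26-fold higher in null against a value of 3. Its call was lost in each fit without 1 array (0.0510 to 0.133), with the block (0.106) and with ordinary t statistics (0.150). Of 14 soluble and enzymatic factors 1 rose and 0 fell: Arg1, the arginase that consumes arginine, read 2.09, 2.39 and 2.09 in het and 4.44, 6.51 and 5.64 in null arrays, at least 5.78-fold higher against a value of 3 (log2 difference 3.34, SE 0.51, limma adjusted p = 0.0323). With a het mean of 2.19 Arg1 passed the minimum through the null arrays alone, so its call is a description. It stayed called without null replicate 1 (0.0296) and in no other fit that left out 1 array (0.0539 to 0.124), nor with the block (0.0684) or ordinary t statistics (0.134). Tgfb3 at -1.65 came close (limma adjusted p = 0.0512), and the galectin Lgals1 stood at 14 to 14.11 in every array.

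Complement-restraining proteins, ligands of natural killer cells and the interferon-gamma route to Cd274 had no call in limma. Over all tested genes 3.46% were called, and 24.0% had an unadjusted p under 0.05 in limma. In these lists 1, 1 and 3 of the 5, 4 and 11 tested genes had such a p. Their nearest genes were Clu, a secreted chaperone (2.16, limma adjusted p = 0.0955), Ulbp1, a ligand of the activating receptor Nkg2d (1.59, 0.0855), and the transcription factor Irf2 (0.76, 0.0968). The complement list's count depended on het replicate 3: without it Clu was called (7.03-fold against 4.46-fold, limma adjusted p = 0.0151) and so was Serping1, an inhibitor of complement proteases, at least 3.26-fold lower in null (0.0137). Serping1 then passed the minimum through its het arrays alone, so its call is a description. Without het replicate 1 Ulbp1 was called (limma adjusted p = 0.0368, at least 3.05-fold higher in null). Its het mean was then below 3, so it passed the minimum through the null arrays alone and its call is a description too. In the interferon-gamma list 7 of 11 differences were positive, with Irf1, an inducer of Cd274, at 9.06, 9.25 and 9.89 in het and 9.56, 10.23 and 10.31 in null arrays. The median differences of the 6 pathway lists, from the partners to the interferon-gamma route, were -0.79, 0.64, -0.14, -0.18, 0.19 and 0.09.

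**Figure D4:**
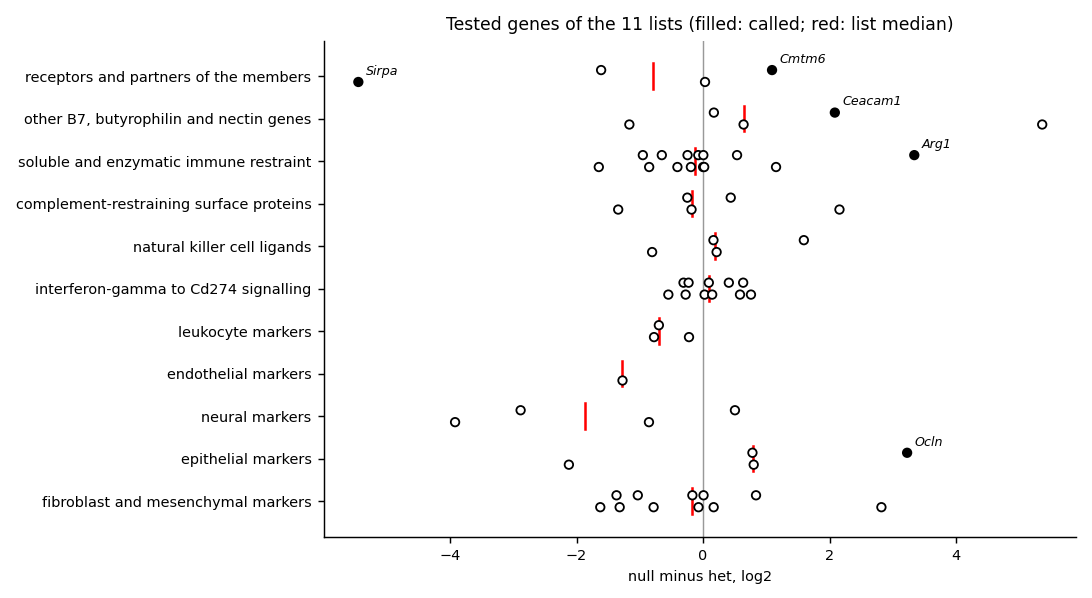
Null minus het difference on the log2 scale (horizontal axis) of each tested gene in the 11 lists (rows); filled points were called, open points were not, and red bars are list medians. Sirpa is the only called gene to the left of 0, and Cmtm6, Ceacam1, Arg1 and Ocln are the called genes to the right.

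Markers of other cell types that carry Cd200 in the body were mostly dim. Of 10 endothelial markers 9 were below the minimum, among them Pecam1 and Cdh5 at 1.72 to 2.31, and the list's mean value was 2.36 to 2.47 in het and 2.37 to 2.45 in null arrays. Of 10 neural markers with a probe set 6 were below it, and the list's mean value was 3.21 to 3.69 in het and 2.78 to 3.6 in null arrays. Of the 4 tested neural genes 3 had a lower and 1 a higher mean in null arrays, without a call. Map2 differed by -3.92, and its groups overlapped. Stmn2 was at least 4.76-fold lower in null against a value of 3, with het arrays at 3.34, 4.27 and 8.14. Tubb3 was the higher one, with a difference of 0.50 and values of 5.59 to 8.2. The part of these neural genes in the Cd200 values was not tested. The endothelial and neural lists had no call in limma, nor had the leukocyte or fibroblast list when each gene stood by its brightest probe set. At an unadjusted p under 0.05 in limma were 1 of 1, 3 of 4, 0 of 3 and 5 of 11 of their tested genes. Over all tested genes 24.0% were at such a p, and 3.46% were called. A dimmer probe set of the growth factor receptor Pdgfra, 1438946_at, was called: 10.67, 10.14 and 9.93 in het and 8.44, 6.68 and 7.92 in null arrays (difference -2.57, limma adjusted p = 0.0480). The brightest Pdgfra probe set differed by -1.63 (limma adjusted p = 0.0593) and the remaining one by -2.39 (0.0671). Lum went the other way, at least 3.95-fold higher in null against a value of 3, and was not called (limma adjusted p = 0.116). The part of these fibroblast markers in the Cd200 values was not tested. The genes nearest to a call in these lists were Egfl7 (-1.28, limma adjusted p = 0.0548), Gap43 (at least 1.39-fold lower in null, 0.116), Coro1a (-0.78, 0.286) and S100a4 (-1.37, 0.0570). Of 4 tested epithelial markers 1 rose: Ocln, a tight junction protein. It read 1.69, 1.27 and 1.25 in het and 4.11, 5.81 and 3.97 in null arrays. The rise was at least 3.10-fold against a value of 3 (limma adjusted p = 0.0356). All het values of Ocln were below 3, so it passed the minimum through the null arrays alone and its call is a description. Without any 1 het array the adjusted p was 0.0573 to 0.107, and without any 1 null array it was not tested, because its mean then fell below 3. With the block it was 0.0797 and with ordinary t statistics 0.140.

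Of the 6 nearest tested genes on either side of Cd200 on chromosome 16, named by the GRCm38.p6 gene table, 0 were called in limma, where 3.46% of all tested genes were. Of these 12 genes 3 had an unadjusted p under 0.05 (Phldb2, Nectin3 and Morc1), as did 24.0% of all tested genes. The next tested gene on one side, Atg3, an autophagy enzyme, read 10.65, 11.11 and 10.73 in het and 10.61, 10.60 and 10.20 in null arrays. On the other side Abhd10 read 8.18, 8.06 and 7.65 in het and 8.22, 8.55 and 8.16 in null arrays. Dppa2, a gene of early embryos, had the largest mean difference of the 12, -3.02, with het arrays at 9.46, 7.50 and 4.77 and null arrays at 5.61, 4.49 and 2.56, and the groups overlapped. Cd80 and Cd47 lie on chromosome 16 too, and Cd274 and Pdcd1lg2 both on chromosome 19.

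**Figure D5:**
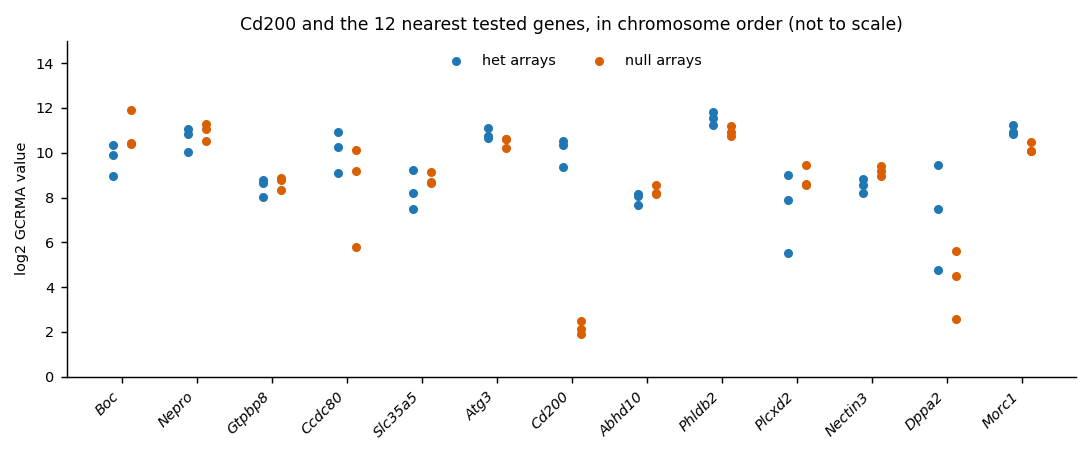
Log2 GCRMA value (vertical axis) of Cd200 and the 6 nearest tested genes on either side in chromosome order (horizontal axis, spacing not to scale); blue points are het and orange points null arrays. Cd200 is the gene whose null arrays all lie below 3 while its het arrays lie above 9.

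The 5 genes whose values were most like those of Cd200, by Pearson correlation over the 6 arrays among 11417 genes outside the group, were Grb14, Zfp503, Gnao1, Zdhhc4 and Ocrl, with r between 0.994 and 0.998. The points share 6 arrays in 2 groups, so any gene that separates the groups cleanly scores high, and the values are a description. Grb14, an adaptor that binds the insulin receptor, read 7.82, 8.17 and 8.50 in het and 2.71, 3.44 and 2.88 in null arrays. Zfp503, a zinc finger repressor, read 7.13, 8.61 and 8.28 against 2.16, 2.28 and 2.42. Gnao1, a G protein alpha subunit of neurons, read 8.29, 9.95 and 9.20 against 2.58, 3.24 and 2.38. Zdhhc4 and Ocrl differed far less, by -1.21 and -1.08, and were not dim in null arrays. Zdhhc4 read 6.17, 6.39 and 6.48 against 5.13, 5.14 and 5.14, and Ocrl read 7.04, 7.13 and 7.09 against 6.04, 6.09 and 5.9. In all 5 genes, as in Cd200, het replicate 1 was the lowest of the het arrays, which their choice by likeness to Cd200 favours.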

How the data were processed

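The authors deposited 1 table of log2 values per probe set for 6 arrays, made with R 2.11.1 and GCRMA 2.20.0 per the submitters' processing notes; the log2 scale was read from the method and the value range, and settings and chip definition are not stated in the sources. GCRMA corrects background by probe sequence and equalizes the arrays' distributions, so dim values carry little information and an overall shift in RNA would not show. Their number, 3 per group, limits the precision.

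Symbols came from the platform annotation (34945 with 1 symbol, 932 with several, 9160 with none; 34741 matched the gene table by Entrez ID and 0 symbols changed). Limma 3.58.1 in R 4.3.3 (lmFit, eBayes, no block, two-sided) was fitted to the 24385 probe sets with a mean of at least 3, with Benjamini-Hochberg adjustment, and was tested on simulated data. A gene outside the 10 was represented by its brightest tested probe set. "At least" folds set the brighter group against a value of 3.

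The members and the 11 lists were chosen with earlier results of these data known. Genes were named by rule: all members, up to 6 called genes of a list or else that with the smallest p, 5 genes most like Cd200, and called neighbours of Cd200. Vim, Lum, Pdgfra, Serping1, Ptprc, Cd14, Cd68, Pecam1, Cdh5, Cmtm4, Siglecg, Tgfb3, Lgals1, Irf1, Map2, Stmn2, Tubb3, the dim receptors, the uncalled neighbours and Cadm1, Krt18, Thy1 and Entpd1 were named after their values were seen. Alternatives were other minimums, moderation, normalization, array weights, a floor, the replicate block, other probe set choices and each array left out. Figures were drawn with matplotlib 3.10.9.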

Additional observations from a re-analysis of the deposited data

How the results depend on the processing

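The difference of Cd200 was -8.28 to -7.70 without 1 array and -7.09 with values under 3 set to 3. The members' count was 1 called of 20 tested probe sets, beside a total of 756 called of 24385. With array weights the members' count became 3 while the total rose to 2949, so no rise particular to the members is read from it. With ordinary t statistics in limma it became 0, where 0 probe sets passed at all (4873 at an unadjusted p under 0.05). In each fit without 1 array the members' count was 1, beside totals that ran from 44 to 857. These counts rest on the values that chose Cd200 and show nothing of its stability. Without null replicate 2 the total was 44 and without null replicate 3 it was 61. The lists' 5 called genes ran from 0 to 3 without 1 array, and were 3 without a minimum or with the floor at 3, 8 with trend and robust moderation, 14 with array weights, 0 with ordinary t statistics and 6 with each gene's probe set of smallest p, which adds Pdgfra. Ceacam1 was also not called with a minimum of 2 or none, Arg1 with the floor, and Ocln with no minimum or the floor. Differences of uncalled members that changed sign in some setting were those of Cd276, Lgals9, 2 probe sets of Cd47 and 1 of Pvr. Deviations from the group means correlated at -0.06, 0.11 and 0.24 between arrays of the same number. Arrays of different numbers were not compared in this way, so these values cannot decide whether the titles' numbers pair the arrays. The main fit used no block. With the replicate block, 116 probe sets, 1 member probe set and 0 list genes were called. For none of these changes was the cause tested. Probe brightness over background limits what can be read for Pdcd1lg2, Cd80 and the dim receptors.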

Other observations

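Cadm1, a nectin-like adhesion protein bound by a receptor of T and natural killer cells, was uneven among the null arrays. Its probe set 1417376_a_at read 2.29, 2 and 2.25 in het and 9.15, 10.89 and 2.59 in null replicates 1 to 3, and the other 3 tested probe sets had the same 2 null arrays high. The het mean lies below 3, so the difference is a bound, at least 23.3-fold higher in null, and it was not called (limma adjusted p = 0.185). Without null replicate 3, the low null array, it was called (0.0278, at least 130-fold). As its het mean stayed below 3, it passed the minimum through the null arrays alone, and that call is a description. Cadm1 was singled out after its values were seen.

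Het replicate 1 had the highest value of the 6 arrays in several genes of these lists. Krt18, a simple-epithelium keratin, stood at 9.02 there and at 2 to 2.68 in the other 5 arrays, Thy1 at 4.29 against 1.45 to 1.77, and Entpd1, an enzyme that degrades extracellular ATP, at 6.41 against 2.43 to 3.54. These genes too were chosen after their values were seen.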
